A study of Mus musculus with 12 samples.

Results

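The genes described here are 10 genes of sympathetic nerves and catecholamine handling in mouse fat, picked by symbol from the 47729 genes in the files. They are Th, Ddc and Dbh, which make catecholamines, Slc18a2 and Slc6a2, which carry them, Maoa, which breaks them down, Npy, a co-transmitter, and Uchl1, Tubb3 and Stmn2, which belong to the neuron's own protein machinery. All 10 were found once each in every library. The RNA came from surgically denervated fat of lean male C57BL/6J wild type mice of 6 to 10 weeks on a standard low-fat rodent diet. There were 4 depots with 3 libraries each: interscapular brown adipose tissue (BAT), inguinal white fat (IWAT), epididymal white fat (EWAT) and retroperitoneal white fat (RWAT). Surgery and diet were shared by all depots. Innervated fat was not analysed here, so nothing can be said of what denervation did, and depots are the groups compared. Whether the 3 libraries within each depot stand for different animals is not in the labels. The p-values therefore reflect sample-to-sample spread alone, and that spread could be technical.

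Sympathetic neurons reach fat from ganglia outside it. In the axon, tyrosine hydroxylase (Th) turns tyrosine into DOPA, aromatic amino acid decarboxylase (Ddc) turns DOPA into dopamine, and dopamine beta-hydroxylase (Dbh) turns dopamine into noradrenaline inside vesicles. Noradrenaline acts on adrenergic receptors of adipocytes, where it drives lipolysis and, in brown fat, heat production. Most mRNA of such a neuron is held in its cell body.

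Libraries held 15699912 to 25633413 counts, and mitochondrial genes took 3.28% to 19% of them. Levels are given as CPM after TMM scaling for comparisons between libraries, and as the authors' TPM, which is per transcript length, for comparisons between genes. Where no read was counted, up to 3 counts remain possible, and this floor corresponds to 0.128 to 0.236 CPM depending on the library. It covers counting error only. The libraries of a depot differed in make-up. The summed CPM of 10 brown adipocyte markers was 5226, 248 and 1257 in BAT replicates 1 to 3, against 70.8 to 461 in IWAT, 8.07 to 11.4 in EWAT and 11.8 to 107 in RWAT, so BAT replicate 2 lay below IWAT replicates 1 and 2. Skeletal muscle markers summed to 20530, 14330 and 2335 CPM in the BAT libraries and to 16820 CPM in RWAT replicate 3, against 26.7 to 95.1 CPM elsewhere. Adipocyte markers were detected in every library, with sums of 2394 to 24150 CPM.

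Catecholamine synthesis was close to absent from the counts at its first and last steps. Th (ENSMUSG00000000214, chr7:142892752-142931128 on GRCm38, minus strand) had 7 counts over all 12 libraries. These were 1, 5 and 0 counts in BAT, 0 in each of the IWAT and EWAT libraries, and 1, 0 and 0 counts in RWAT. The level of BAT replicate 2 was 0.327 CPM, and every other library was at or under its floor. Dbh (ENSMUSG00000000889, chr2:27165233-27183200, plus strand) had 4 counts in all, with 0 in each BAT and IWAT library, 3, 0 and 0 counts in EWAT, and 0, 0 and 1 counts in RWAT. Neither gene passed the filter on low counts, so neither was tested in the fit. At this depth a depot difference in Th or Dbh was not detectable. In bulk tissue, fewer cells of a type and less RNA per cell cannot be told apart.

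The Th promoter is shown because Th is the rate-limiting step of the pathway and its upstream region carries the textbook cAMP response element. The sequence is the 250 bases before the RefSeq start on GRCm38.p6, chr7:142899996-142900245, read on the minus strand, with that element (TGACGTCA) and a GC box (GGGCGG) in capitals.

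Th: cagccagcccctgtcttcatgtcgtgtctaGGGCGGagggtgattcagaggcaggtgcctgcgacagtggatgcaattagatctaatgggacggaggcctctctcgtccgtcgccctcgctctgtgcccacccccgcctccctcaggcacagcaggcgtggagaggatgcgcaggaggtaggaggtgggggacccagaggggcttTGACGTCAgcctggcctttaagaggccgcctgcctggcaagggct

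On either strand, TGACGTCA occurred in 1.55% and GGGCGG in 32.7% of 32851 mouse promoter windows of 250 bases. In Th their first bases lay 45 and 220 bases before the RefSeq start. That start lies inside the gene span given above, which comes from GENCODE and reaches further upstream. The match describes the sequence and says nothing about activity in fat, where 9 of the 12 libraries had no Th count.

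Ddc (ENSMUSG00000020182, chr11:11814101-11898144, minus strand), the middle step, was measured in all 12 libraries. It had 0.315, 0.466 and 1.29 CPM in BAT, 0.567, 0.732 and 1.58 CPM in IWAT, 2.77, 1.96 and 1.40 CPM in EWAT, and 1.03, 2.26 and 3.94 CPM in RWAT. All EWAT libraries lay above all BAT libraries, and every other pair of depots overlapped. The mean was 0.691 ± 0.526 CPM in BAT, 0.96 ± 0.544 CPM in IWAT, 2.05 ± 0.688 CPM in EWAT and 2.41 ± 1.46 CPM in RWAT (SD, n = 3 each). The log2 fold change was −1.25 in BAT against the averaged log2 levels of the 3 white depots (SE 0.57, adjusted p = 0.28) and −1.23 in IWAT against those of EWAT and RWAT (SE 0.58, adjusted p = 0.44). Neither passed the test. Without BAT replicate 3 the value in BAT against white was −2.01 (adjusted p = 0.0927). Ddc is also expressed outside neurons, for example in kidney and liver. Its fractional counts carried a deposited posterior SD of up to 11.5% of the count, and an antisense gene that overlaps it, 1700042O10Rik, had at most 6 counts in a library.

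Among the other genes for the synthesis cofactor tetrahydrobiopterin, vesicle electron supply and adrenaline formation, 7 of 8 passed the filter and none was called by edgeR in any of the 3 main comparisons. At an unadjusted p under 0.05 there were 4 in BAT against the white depots, 2 in IWAT against EWAT and RWAT, and 0 in EWAT against RWAT, while 18.1%, 11.5% and 9.04% of all genes tested were under that limit in the same order. DESeq2 and limma-voom called 0 of them in each. Their median log2 fold change in BAT against white was 0.46, while that of all genes tested was −0.07. The most abundant was Qdpr, which regenerates tetrahydrobiopterin, at a mean of 64.4 TPM over all libraries. Pnmt, the adrenaline-forming enzyme, was not tested. It had 3.54 CPM in EWAT replicate 1 and 0.315 CPM or less in the other 11 libraries (named after its values were seen).

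The vesicle and membrane transporters were low but present. Slc18a2 (ENSMUSG00000025094, chr19:59260896-59296012, plus strand), the vesicular monoamine transporter VMAT2, had 2.28, 3.93 and 4.94 CPM in BAT, 2.94, 3.16 and 5.01 CPM in IWAT, 3.85, 2.40 and 3.40 CPM in EWAT, and 4.35, 3.92 and 4.13 CPM in RWAT. It was among the steadiest of the 10, with a ratio of 2.20 between its highest and lowest library, and only EWAT and RWAT did not overlap. The log2 fold change was 0.03 in BAT against white (SE 0.28, adjusted p = 0.962) and −0.36 in EWAT against RWAT (SE 0.35, adjusted p = 0.82). Without TMM scaling, the median of all genes in BAT against white was −0.46 in place of −0.07, and Slc18a2 came to −0.33, so that its value moved with that of all genes.

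VMAT2 is also made by mast cells, which store histamine in vesicles. Markers of mast cells, 12 genes in all, were present in every depot. Their sum was 57.6 to 107.8 CPM in BAT, 25.1 to 61.4 CPM in IWAT, 37.4 to 44.0 CPM in EWAT and 28.6 to 52.8 CPM in RWAT, and at most 1 of the 12 was at 0 in a library. The sum was not even in make-up, since Kit alone had 38.4 of 48.1 CPM in RWAT replicate 2, where Cpa3 had 0.991 CPM. The median log2 fold change of the 9 tested was 1.64 in BAT against white, beside −0.07 over all genes. Of the 9 values 7 were positive, and those of Kit and Hdc were negative. DESeq2 called 3 of the 9, beside 4.96% of all genes, and edgeR and limma-voom called 0. The part of mast cells in the Slc18a2 level was not tested.

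Slc6a2 (ENSMUSG00000055368, chr8:92960079-93001667, plus strand), the noradrenaline transporter that takes the transmitter back into the axon, was the lowest of the 8 tested genes per length, with a median of 0.23 TPM. It had 0.813, 0.558 and 0.471 CPM in BAT, 1.089, 1.082 and 1.097 CPM in IWAT, 0.851, 0.855 and 0.486 CPM in EWAT, and 1.02, 2.15 and 2.42 CPM in RWAT. RWAT lay above BAT and above EWAT without overlap, and IWAT also lay above both. The mean was 0.614 ± 0.178 CPM in BAT, 1.09 ± 0.00728 CPM in IWAT, 0.73 ± 0.212 CPM in EWAT and 1.86 ± 0.742 CPM in RWAT (SD, n = 3 each). Behind these levels stood 8.53 to 47.71 counts per library, with a deposited posterior SD of up to 10.1% of the count. In IWAT, 99.7% of tested genes had at least the range of Slc6a2. With 19.54 to 21.85 counts in those libraries, so small an SD is not a firm measure of their spread.

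The log2 fold change of Slc6a2 was −1.33 in EWAT against RWAT (SE 0.40, unadjusted p = 0.00686, adjusted p = 0.299) and −1.58 in BAT against RWAT (SE 0.41, unadjusted p = 0.00281, adjusted p = 0.319). Neither passed over all genes, and both kept their sign in all 19 alternatives. Against the white depots together, the value in BAT was −0.89 (SE 0.35, adjusted p = 0.237).

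**Figure D1:**
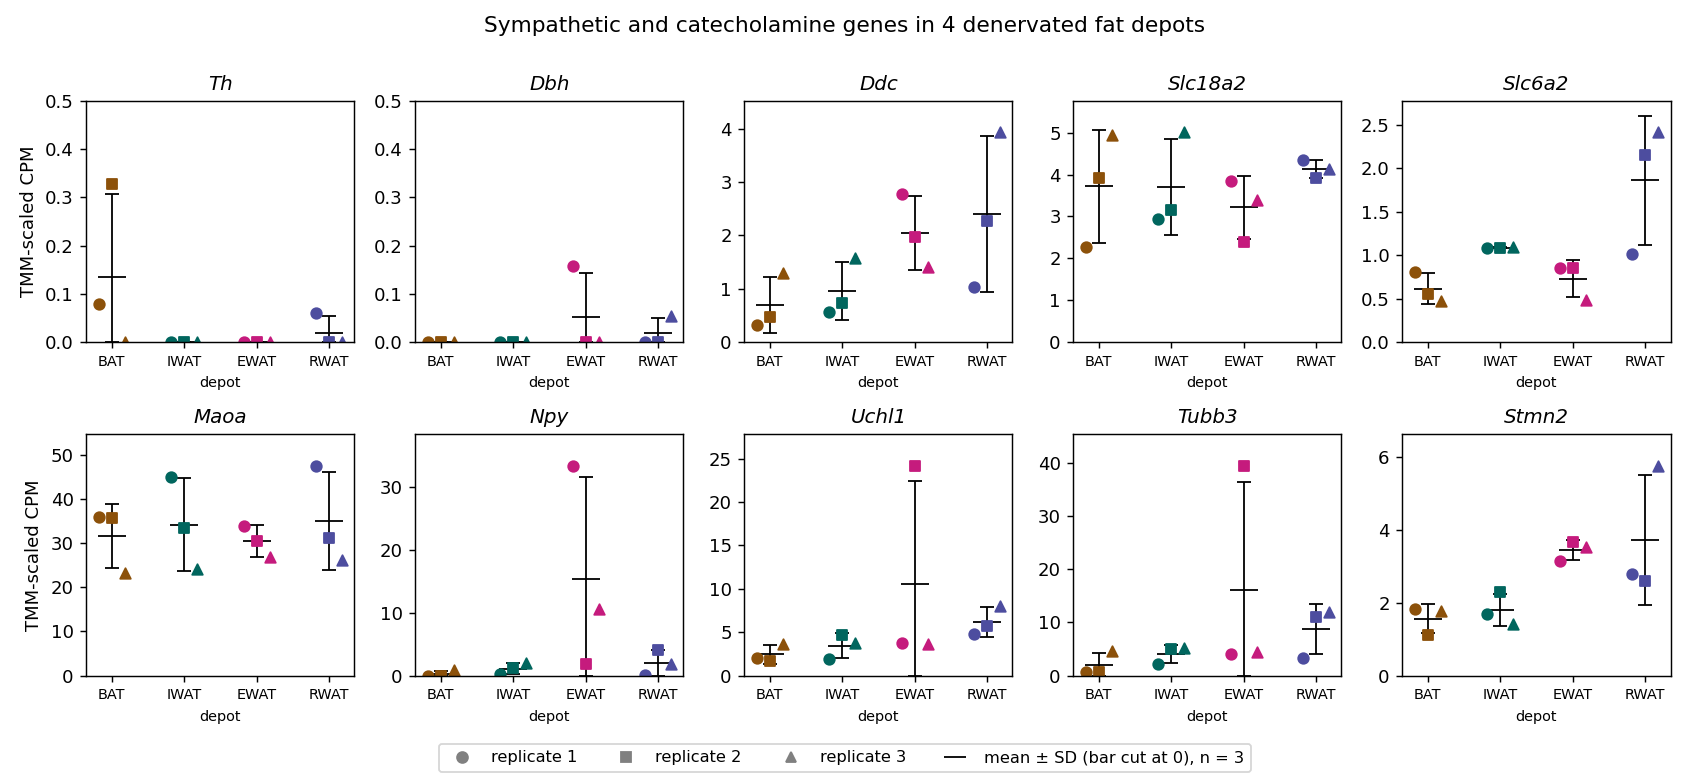
Levels of the 10 genes by depot, in TMM-scaled CPM on the vertical axis of each panel, with 1 symbol per library and bars for the mean ± SD (n = 3). Th and Dbh stay at or near 0, Slc18a2 and Maoa are similar in the 4 depots, Stmn2 is higher in all EWAT and RWAT libraries than in all BAT and IWAT libraries, and single EWAT libraries carry the highest Npy, Uchl1 and Tubb3.

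Among the 10 genes, the breakdown gene Maoa had a higher level than those of synthesis or transport. Outside the 10 this order did not always hold. The cofactor gene Qdpr averaged 64.4 TPM and the transporter Slc22a3 11.04 TPM, beside 10.1 TPM for Maoa. Maoa (ENSMUSG00000025037, chrX:16619698-16687818, plus strand), a mitochondrial monoamine oxidase that is widely expressed outside neurons, had 35.8, 35.7 and 23.3 CPM in BAT, 45.1, 33.3 and 24.1 CPM in IWAT, 33.97, 30.6 and 26.8 CPM in EWAT, and 47.6, 31.2 and 26.2 CPM in RWAT. All depots overlapped, and the highest library was 2.04 times the lowest. The log2 fold changes were −0.07 in BAT against white (SE 0.24, adjusted p = 0.867), 0.07 in IWAT against EWAT and RWAT (SE 0.25, adjusted p = 0.914) and −0.20 in EWAT against RWAT (SE 0.29, adjusted p = 0.882). Their sizes were smaller than the standard errors.

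The level of Maoa in BAT depends on the scale. The authors' TPM was 5.53, 9.22 and 7.16 in BAT, against 9.88, 9.22 and 9.90 in IWAT, 11.04, 10.79 and 11.31 in EWAT, and 15.13, 12.45 and 9.83 in RWAT. On that scale the log2 ratio of BAT to the white depots was −0.60, and with library sizes that were not TMM-scaled the fitted value was −0.47, beside a median of −0.46 over all genes. Mitochondrial genes took 13% to 19% of counts in BAT and 3.28% to 12.1% in the white libraries. Their part in the scale difference was not tested.

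Other genes of uptake and breakdown, both named after their values were seen, varied far more between libraries of a depot. Maob, the second monoamine oxidase, had 94.6, 72.4 and 36.9 CPM in BAT, 84.5, 75.7 and 16.7 CPM in IWAT, 17.6, 22.1 and 9.10 CPM in EWAT, and 52.4, 5.72 and 10.9 CPM in RWAT. Slc22a3, an extraneuronal monoamine transporter, had 55.4, 59.0 and 21.9 CPM in BAT, 66.9, 54.2 and 16.6 CPM in IWAT, 18.4, 20.04 and 10.7 CPM in EWAT, and 54.5, 13.9 and 9.24 CPM in RWAT. In each of BAT, IWAT and RWAT, the libraries high in these genes were also high in adipocyte markers, whose summed CPM was 22330, 20320 and 8799 in BAT, 24150, 19130 and 6039 in IWAT, 5278, 5717 and 3430 in EWAT, and 17060, 3367 and 2394 in RWAT. The part of adipocyte content in these levels was not tested.

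**Figure D2:**
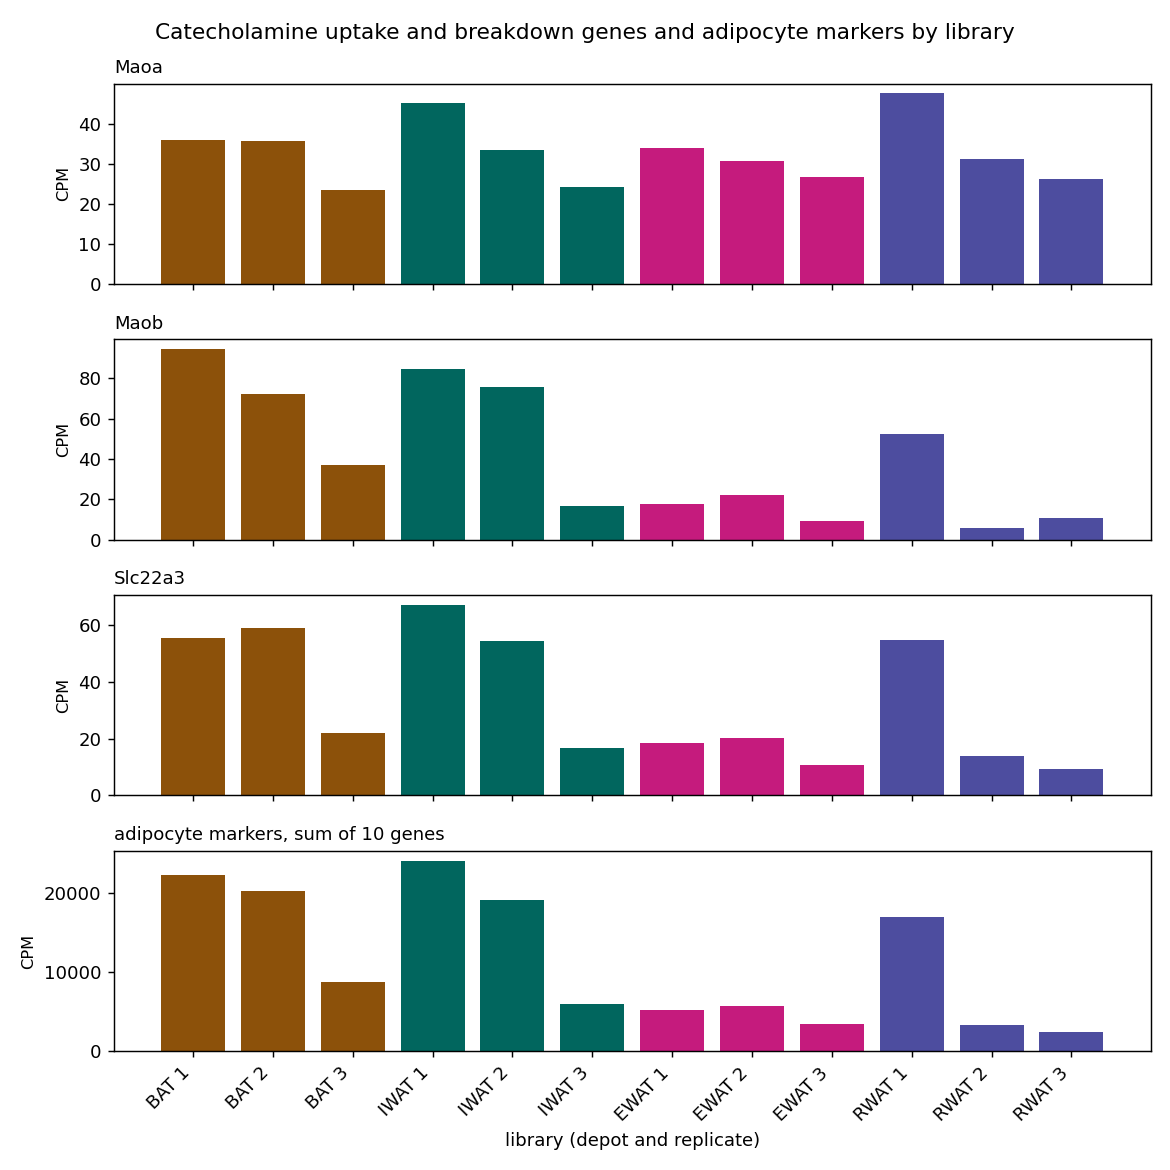
CPM of Maoa, Maob and Slc22a3 and the summed CPM of 10 adipocyte markers in each of the 12 libraries. Maob and Slc22a3 are high in BAT replicates 1 and 2, IWAT replicates 1 and 2 and RWAT replicate 1, where adipocyte markers sum to 17060 CPM or more, while Maoa stays between 23.3 and 47.6 CPM.

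Of the 14 other genes of catecholamine transport and breakdown, 10 were tested and edgeR called none in the 3 main comparisons. DESeq2 and limma-voom also called 0. At an unadjusted p under 0.05 there were 3 in BAT against white, 2 in IWAT against EWAT and RWAT, and 1 in EWAT against RWAT, beside 18.1%, 11.5% and 9.04% of all genes. Their median log2 fold change in BAT against white was 0.61, with 8 of 10 values positive, beside −0.07 over all genes. Aldh2, an aldehyde dehydrogenase with many substrates, was the most abundant at a mean of 363 TPM.

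Npy (ENSMUSG00000029819, chr6:49822710-49829507, plus strand) encodes neuropeptide Y, which sympathetic neurons release with noradrenaline. It was the most uneven of the 10. The counts were 0, 0 and 17 in BAT, 5, 22 and 37 in IWAT, 633, 44 and 212 in EWAT, and 1, 92 and 33 in RWAT. As levels these were 0, 0 and 0.832 CPM in BAT, 0.249, 1.22 and 1.93 CPM in IWAT, 33.4, 1.88 and 10.6 CPM in EWAT, and 0.0595, 4.14 and 1.79 CPM in RWAT. All EWAT libraries lay above all BAT libraries, while EWAT overlapped with IWAT and RWAT through its replicate 2.

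The Npy levels within EWAT spanned a ratio of 17.7, a range that 0.893% of tested genes reached or passed in that depot on the scale of log2(CPM + 0.2). The fitted log2 fold change was −5.61 in BAT against EWAT (SE 1.68, adjusted p = 0.0829), −3.38 in BAT against white (SE 1.45, adjusted p = 0.26) and 2.92 in EWAT against RWAT (SE 1.43, adjusted p = 0.606). None passed edgeR's test with all libraries and no replicate block. With the block, edgeR called Npy in BAT against EWAT (adjusted p = 0.0496). Because 2 BAT libraries were at 0, the fitted sizes in BAT rest on the 17 counts of its replicate 3. Without BAT replicate 3, the value in BAT against white was −8.91 (adjusted p = 0.0955). No BAT count is then left, so that size depends on the prior count. DESeq2 called Npy in BAT against EWAT (adjusted p = 0.00288, the lowest of its alternatives, which reached 0.242).

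The Npy promoter is shown as that of the gene with the largest spread. The window is chr6:49822460-49822709 on GRCm38.p6, plus strand, with a GC box in capitals whose first base lay 95 bases before the start.

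Npy: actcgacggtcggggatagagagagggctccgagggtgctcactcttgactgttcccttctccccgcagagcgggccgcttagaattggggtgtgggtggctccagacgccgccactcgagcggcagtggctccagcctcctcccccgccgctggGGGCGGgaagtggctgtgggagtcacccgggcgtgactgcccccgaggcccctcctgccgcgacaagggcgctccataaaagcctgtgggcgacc

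Other tissues lay in the EWAT libraries in unequal amounts. Crisp1, a secreted protein of the epididymis, had 1142 CPM in EWAT replicate 1, 0 CPM in replicate 2 and 0.35 CPM in replicate 3, and at most 0.0787 CPM elsewhere. The sum of 12 epithelial and epididymal markers was 1267, 64.0 and 39.5 CPM in the EWAT libraries, against 1.65 to 2.09 CPM in BAT, 0.747 to 4.72 CPM in IWAT and 4.89 to 67.3 CPM in RWAT, and none of the 12 was at 0 in EWAT replicate 1. The part of epididymal RNA in the Npy level was not tested. Without EWAT replicate 1 the log2 fold change of Npy in BAT against EWAT was −4.31 (adjusted p = 0.147), and in EWAT against RWAT it was 1.62 (adjusted p = 0.726). Of 5 neuropeptide Y receptors, only Npy1r was tested. It averaged 1.28 TPM over all libraries and was not called, with a log2 fold change of 0.18 in BAT against white (SE 0.39, adjusted p = 0.791).

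Uchl1, Tubb3 and Stmn2 stand for the neuron's structure. Uchl1 (ENSMUSG00000029223, chr5:66676091-66687234, plus strand), the ubiquitin hydrolase PGP9.5 used to stain nerves, had 2.05, 1.64 and 3.62 CPM in BAT, 1.89, 4.65 and 3.81 CPM in IWAT, 3.80, 24.2 and 3.65 CPM in EWAT, and 4.76, 5.68 and 8.05 CPM in RWAT. BAT lay below EWAT and below RWAT without overlap, and IWAT lay below RWAT. EWAT replicate 2 was far above the other 11 libraries.

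Tubb3 (ENSMUSG00000062380, chr8:123411424-123422015, plus strand), the neuronal beta-tubulin recognised by the TUJ1 antibody, had 0.63, 0.72 and 4.60 CPM in BAT, 2.14, 4.98 and 5.17 CPM in IWAT, 4.12, 39.5 and 4.45 CPM in EWAT, and 3.33, 10.99 and 11.96 CPM in RWAT. All pairs of depots overlapped, and EWAT replicate 2 was again the highest. Another protein-coding gene on the same strand, Gm20388, overlaps Tubb3 and had 943.5 to 3311.89 counts per library. Reads from both cannot always be told apart, although the deposited posterior SD of the Tubb3 count was at most 0.0337% of it. Uchl1 has an antisense neighbour, Uchl1os, with at most 2.07 counts per library.

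In EWAT, the highest library of Uchl1 was 6.63 times the lowest, and that of Tubb3 was 9.61 times the lowest. Such a range was reached or passed by 2.50% and 1.68% of tested genes in that depot. Across all 12 libraries the pair had a Pearson r of 0.933 on log2 CPM, a description of libraries that share these depots and make-up. Their promoters are shown side by side because the pair peaked in the same library. Both are plus-strand windows on GRCm38.p6, chr5:66675871-66676120 for Uchl1 and chr8:123411303-123411552 for Tubb3, with GC boxes in capitals. Each runs up to a RefSeq start that lies inside the GENCODE gene span given above.

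Uchl1: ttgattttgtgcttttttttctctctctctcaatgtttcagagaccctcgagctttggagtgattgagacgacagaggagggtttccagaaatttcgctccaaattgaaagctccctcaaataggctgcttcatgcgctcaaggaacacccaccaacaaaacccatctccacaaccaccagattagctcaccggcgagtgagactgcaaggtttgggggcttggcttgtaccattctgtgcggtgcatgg

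Tubb3: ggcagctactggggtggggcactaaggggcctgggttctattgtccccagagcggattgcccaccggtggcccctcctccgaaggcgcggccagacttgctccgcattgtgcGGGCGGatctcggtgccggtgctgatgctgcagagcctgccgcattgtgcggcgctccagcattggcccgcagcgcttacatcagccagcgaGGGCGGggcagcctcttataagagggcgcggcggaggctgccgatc

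The Tubb3 window held GGGCGG at 138 and 46 bases before the start. The Uchl1 window held neither this motif nor TGACGTCA or TATAAA, the last of which occurred in 12.4% of all windows, so the letters searched were not shared by the pair.

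EWAT replicate 2 also stood apart in genes of steroid-producing cells. Nr5a1, their defining transcription factor, had 15.9 CPM there, 0.264 and 0.85 CPM in the other EWAT libraries, 0.0544 CPM in RWAT replicate 3 and 0 in the remaining 8. Star, which moves cholesterol into mitochondria, had 63.5 CPM in EWAT replicate 2 and 1.02 to 19.4 CPM in the other libraries. Cyp11a1, the first enzyme of steroid synthesis, had 13.5 CPM in EWAT replicate 2 and 0.0905 to 1.16 CPM in the others. The sum of the 10 adrenal markers was 103 CPM in this library, with 1 of the 10 at 0, against 8.88 to 38.6 CPM in the other 11, with 1 to 5 at 0. The chromaffin enzymes Th, Dbh and Pnmt had no count in it. The part of steroid-producing cells in its Uchl1 and Tubb3 levels was not tested.

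The log2 fold change of Uchl1 was −2.11 in BAT against EWAT (SE 0.73, adjusted p = 0.106), −1.31 in BAT against white (SE 0.62, adjusted p = 0.292) and 0.78 in EWAT against RWAT (SE 0.69, adjusted p = 0.803). For Tubb3 it was −2.98 in BAT against EWAT (SE 1.06, adjusted p = 0.113), −2.04 in BAT against white (SE 0.92, adjusted p = 0.276) and 0.87 in EWAT against RWAT (SE 0.98, adjusted p = 0.847). None passed edgeR's test with all libraries. DESeq2 called Uchl1 in BAT against EWAT (adjusted p = 0.0278, with alternatives up to 0.424) and gave Tubb3 no adjusted p in any comparison. Without BAT replicate 3, Tubb3 in BAT against white was −3.54 (adjusted p = 0.0872). Without EWAT replicate 2, BAT against white came to −0.81 for Uchl1 and −1.41 for Tubb3. Without the same library, EWAT against RWAT turned to −0.72 for Uchl1 and −1.03 for Tubb3, and BAT against EWAT came to −0.61 for Uchl1 and −1.08 for Tubb3. A single library thus set the direction between EWAT and RWAT.

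Stmn2 (ENSMUSG00000027500, chr3:8509360-8561606, plus strand), a regulator of microtubules in axon growth, gave the most orderly pattern of the 10. It had 1.82, 1.11 and 1.76 CPM in BAT, 1.70, 2.29 and 1.41 CPM in IWAT, 3.13, 3.66 and 3.53 CPM in EWAT, and 2.79, 2.59 and 5.76 CPM in RWAT. All 6 EWAT and RWAT libraries lay above all 6 BAT and IWAT libraries. The share of all genes that split the libraries in this way was not counted. BAT overlapped with IWAT, and EWAT with RWAT. The mean was 1.56 ± 0.391 CPM in BAT, 1.80 ± 0.447 CPM in IWAT, 3.44 ± 0.276 CPM in EWAT and 3.71 ± 1.77 CPM in RWAT (SD, n = 3 each).

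The log2 fold change of Stmn2 was −0.99 in IWAT against EWAT and RWAT (SE 0.34, unadjusted p = 0.0141, adjusted p = 0.392). It was −1.13 in BAT against EWAT (SE 0.38, adjusted p = 0.102) and −1.24 in BAT against RWAT (SE 0.38, adjusted p = 0.319). None passed edgeR's test over all genes. DESeq2 called Stmn2 in BAT against EWAT (adjusted p = 0.039, the lowest of its alternatives, which reached 0.237).

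Mesothelial markers split the libraries the same way as Stmn2. The sum of 9 such genes was 2.54 to 7.33 CPM in BAT and 3.55 to 5.98 CPM in IWAT, against 123.6 to 280.6 CPM in EWAT and 77.1 to 346.9 CPM in RWAT. All 9 were above 0 in every EWAT and RWAT library, and up to 5 of 9 were at 0 in a BAT or IWAT library. Upk3b, a defining gene of this lining, had at most 0.589 CPM in BAT and 0.111 CPM in IWAT, against at least 17.6 CPM in EWAT and 10.1 CPM in RWAT. RWAT replicate 3 was highest in both Stmn2 and the mesothelial sum. The libraries of a depot came in the same order by both within IWAT and RWAT, but not within BAT and EWAT. EWAT replicate 1 had the largest mesothelial sum of its depot (280.6 CPM) and the lowest Stmn2 (3.13 CPM). The part of mesothelial cells in the Stmn2 level was not tested.

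**Figure D3:**
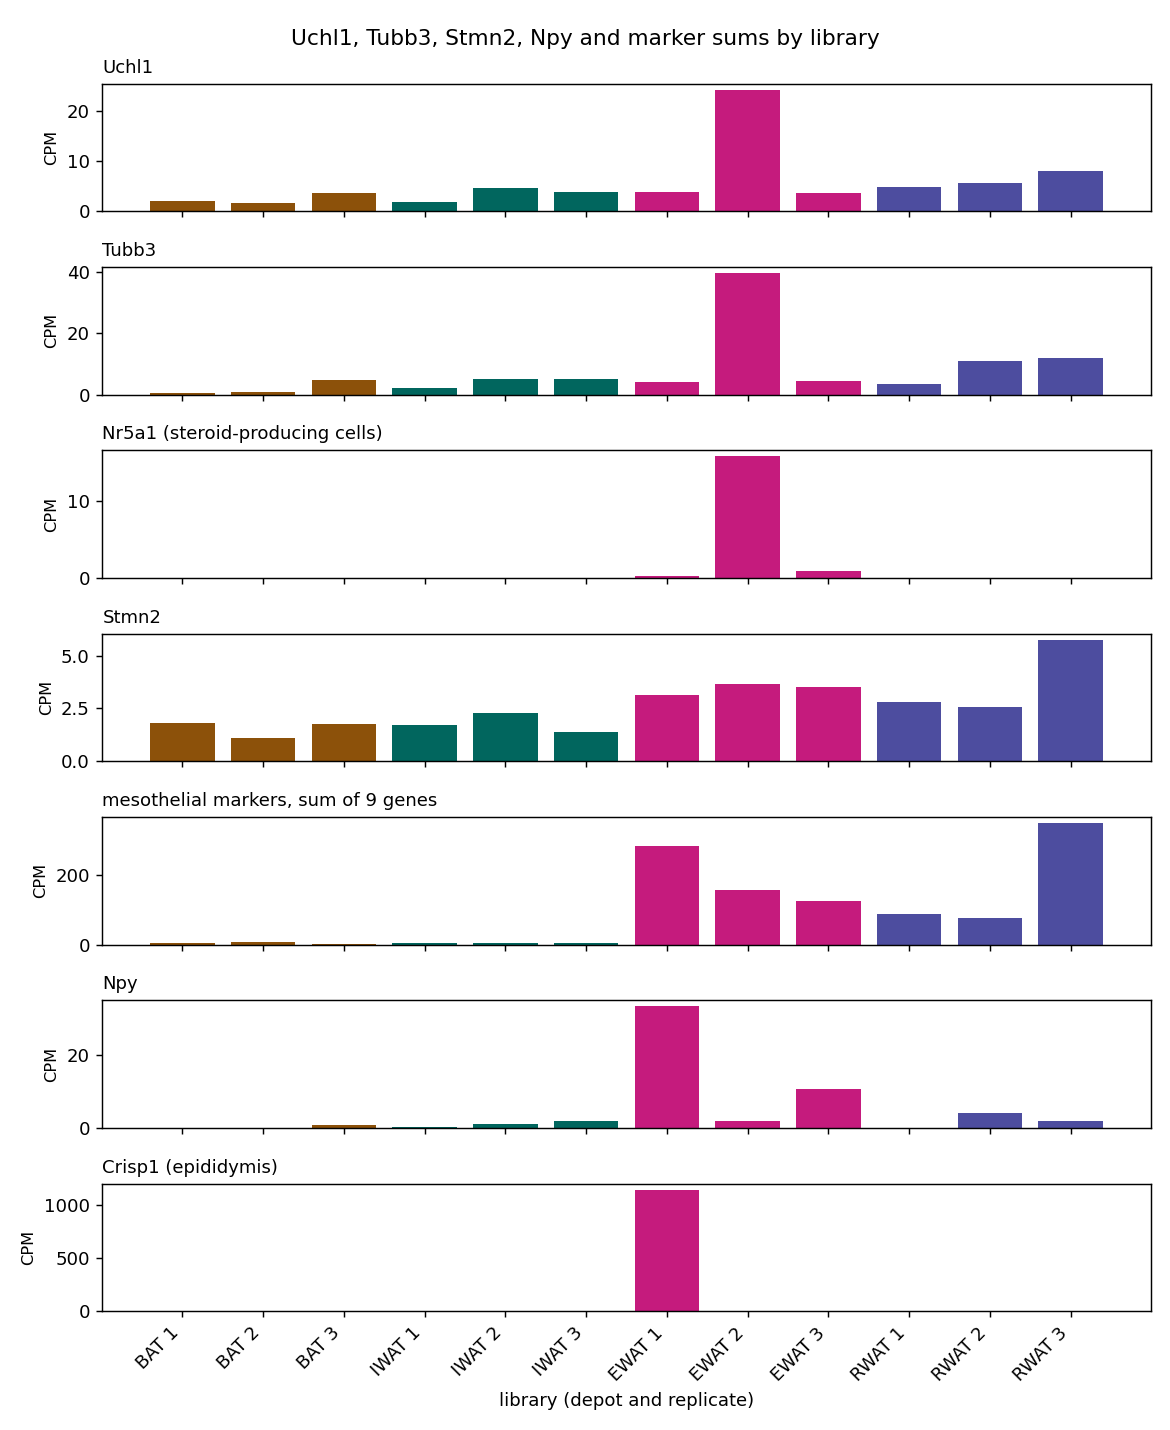
CPM of Uchl1, Tubb3, Stmn2 and Npy in each of the 12 libraries, each set above the CPM of the marker gene or list whose values are given beside it. EWAT replicate 2 is highest in Uchl1, Tubb3 and Nr5a1, the mesothelial sum and Stmn2 are higher in all EWAT and RWAT libraries, and Crisp1 is seen mainly in EWAT replicate 1.

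Broader neuronal genes were mostly below the test. Of 25 genes of neuron structure and vesicles, 12 were tested and edgeR called none in the 3 main comparisons. Unadjusted p-values under 0.05 numbered 3 in each comparison, beside 18.1%, 11.5% and 9.04% of all genes. DESeq2 called 2 in BAT against white, 0 in IWAT against EWAT and RWAT and 1 in EWAT against RWAT, beside 4.96%, 1.9% and 2.85% of all genes, and limma-voom called 0. The list's median log2 fold change was 0.37 in BAT against white, 0.40 in IWAT against EWAT and RWAT, and −1.20 in EWAT against RWAT, beside −0.07, −0.05 and −0.04 over all genes. The values for BAT and IWAT thus had the opposite sign to those of Uchl1, Tubb3 and Stmn2. The most abundant was Vamp2, a vesicle fusion protein that many cells use, at a mean of 14.4 TPM. Of genes closer to neurons, named after their values were seen, Snap25 had 36.41 counts, Syt1 had 7 counts and Scg2 had 2 counts over all 12 libraries. Others of the list had more, with 1213.01 counts for Chga, 957.37 for Syp, 855.08 for Mapt, 533 for Map2 and 364 for Gap43.

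Of 10 genes of the sympathetic lineage, 6 were tested and edgeR, DESeq2 and limma-voom called none in the 3 main comparisons. At an unadjusted p under 0.05 there were 3, 3 and 2, beside the same 18.1%, 11.5% and 9.04% of all genes. The most abundant was Ret, a receptor for glial-derived neurotrophic ligands, at a mean of 2.74 TPM. Of 9 sensory and cholinergic genes, 3 were tested and edgeR called none, with 0, 3 and 0 at an unadjusted p under 0.05. DESeq2 called 1, in IWAT against EWAT and RWAT, where it called 1.9% of all genes, and limma-voom called 0. Chat, which makes acetylcholine, had 0 counts.

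Schwann cell genes, which mark the glia around axons, were present in every depot. The sum of 12 genes was 176.4 to 375.8 CPM in BAT, 185.6 to 292.8 CPM in IWAT, 151.2 to 182.2 CPM in EWAT and 142.0 to 259.8 CPM in RWAT. EdgeR called none of the 11 tested in the 3 main comparisons. At an unadjusted p under 0.05 there were 2, 6 and 4, beside 18.1%, 11.5% and 9.04% of all genes. DESeq2 called 1, 2 and 2, beside 4.96%, 1.9% and 2.85%, and limma-voom called 0. The median log2 fold change of the 11 was 0.41 in BAT against white (9 positive), 1.47 in IWAT against EWAT and RWAT (10 positive) and −1.47 in EWAT against RWAT (2 positive), beside −0.07, −0.05 and −0.04 over all genes.

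Most of that sum came from Pmp22 and Mbp, myelin genes that are not exclusive to Schwann cells, at 85.2 to 206.3 CPM and 26.9 to 79.95 CPM in a library. Of the more restricted genes of the list, Sox10 and Cdh19, named after their values were seen, were low in EWAT. Sox10, the transcription factor of this glia, had 1.42, 0.72 and 0.587 CPM in BAT, 1.84, 2.38 and 0.783 CPM in IWAT, 0, 0.257 and 0.2 CPM in EWAT, and 2.68, 0.315 and 0.544 CPM in RWAT. Cdh19, a cadherin of Schwann cells, had 7.95, 6.94 and 3.23 CPM in BAT, 13.65, 11.19 and 3.45 CPM in IWAT, 0.422, 0.557 and 0.3 CPM in EWAT, and 11.43, 0.676 and 1.96 CPM in RWAT. All 3 EWAT libraries lay below every other library in both genes, and neither passed edgeR's test. How many of all genes had such a split was not counted. In IWAT against EWAT, 10 of the 11 tested genes of the list had positive values. Erbb3 was the exception, with 19.15, 5.82 and 3.50 CPM in EWAT and 6.13, 6.09 and 4.91 CPM in IWAT. Prx had 2.90, 3.43 and 2.20 CPM in EWAT, beside 11.48, 2.03 and 2.15 CPM in BAT.

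Levels per transcript length were compared as TPM, pooled over depots. Median TPM over the 12 libraries was 9.89 for Maoa, 6.94 for Uchl1, 4.16 for Npy, 3.19 for Tubb3, 1.83 for Ddc, 1.46 for Stmn2, 1.45 for Slc18a2 and 0.23 for Slc6a2, with 0 for Dbh and Th. Neighbours in this order overlapped between libraries, except that every Slc6a2 value (0.09 TPM or more) lay above every Dbh value (0.08 TPM or less). By mean within depots, the order differed. In EWAT the mean was 44.3 TPM for Npy, 22.3 TPM for Uchl1 and 13.05 TPM for Tubb3, against 11.05 TPM for Maoa. The means of Uchl1 and Tubb3 rested on EWAT replicate 2, at 51.86 and 31.8 TPM. In EWAT replicates 1 and 3, Uchl1 (5.52 and 9.64 TPM) and Tubb3 (3.05 and 4.29 TPM) lay below Maoa (11.04 and 11.31 TPM). Npy lay below Maoa in EWAT replicate 2 (5.52 against 10.79 TPM). The widest range was that of Npy, 0 to 90.18 TPM, and the narrowest on a ratio scale was that of Maoa, 5.53 to 15.13 TPM.

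**Figure D4:**
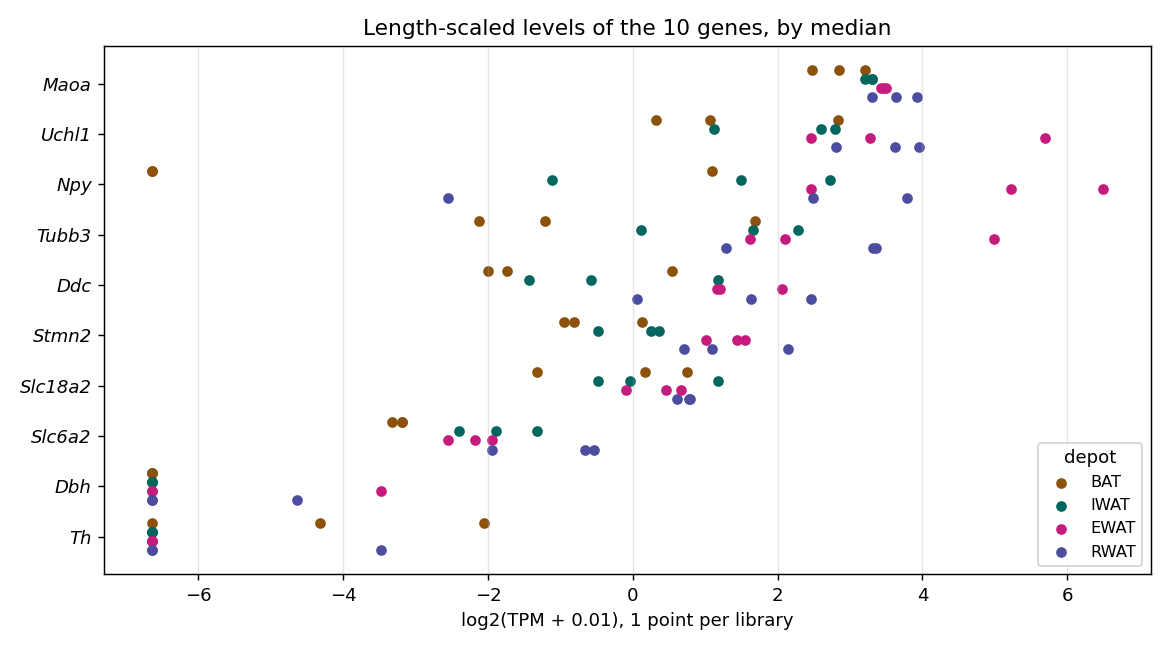
Authors' TPM of the 10 genes on a log2 axis, log2(TPM + 0.01), ordered by median, with 1 point per library coloured by depot. Npy runs from 0 to 90.18 TPM and Maoa from 5.53 to 15.13 TPM, while 9 libraries of Th and 10 of Dbh sit at 0.

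Over the 3 main comparisons, edgeR called 0 of the 8 tested genes in each. The share of all 19154 genes called was itself small, at 0.0992% in BAT against white, 0.141% in IWAT against EWAT and RWAT, and 0.0418% in EWAT against RWAT. DESeq2 called 0 of the 7 to which it gave an adjusted p, beside 4.96%, 1.9% and 2.85% of all genes, and limma-voom called 0 of 8, beside 0.0157%, 0.0835% and 0.0418%. At an unadjusted p under 0.05, BAT against white had 3 of 8 (Slc6a2, Npy and Stmn2), beside 18.1% of all genes. IWAT against EWAT and RWAT had 1 of 8 (Stmn2), beside 11.5%, and EWAT against RWAT had 1 of 8 (Slc6a2), beside 9.04%. In BAT against white 7 of the 8 fitted values were negative, with a median of −1.07 beside −0.07 over all genes. The median was −1.11 in IWAT against EWAT and RWAT, with 6 of 8 negative, and −0.16 in EWAT against RWAT, with 5 of 8 negative, beside −0.05 and −0.04 over all genes. The 3 comparisons share libraries, so these counts are not separate evidence.

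Counted by libraries that did not overlap, 0 of 8 were lower in BAT than in all white libraries, beside 0.752% of all genes. Stmn2 was 1 of 8 lower in IWAT than in EWAT and RWAT, beside 1.67%. Slc18a2 and Slc6a2 were 2 of 8 lower in EWAT than in RWAT, beside 6.62%.

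**Figure D5:**
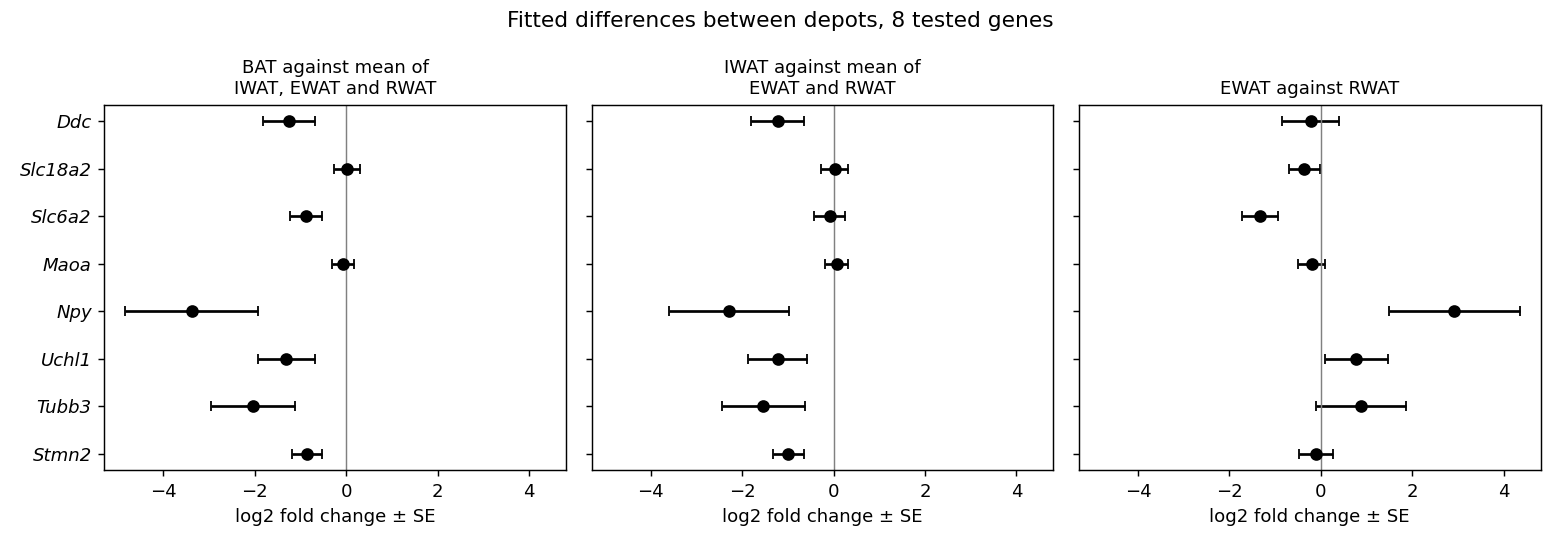
Fitted log2 fold changes with standard errors from edgeR for the 8 tested genes in the 3 main comparisons, with the first-named depot over the second. In BAT against white 7 of 8 values lie below 0, those of Slc18a2 and Maoa lie near 0 in that panel and in IWAT against EWAT and RWAT, and no value passed the adjusted threshold.

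In the other 5 pairs of depots, edgeR again called 0 of 8 in each, beside 0.0104% of all genes in BAT against IWAT, 0.783% in BAT against EWAT, 0.0574% in BAT against RWAT, 0.345% in IWAT against EWAT and 0% in IWAT against RWAT. In BAT against EWAT, 5 of 8 (Ddc, Npy, Uchl1, Tubb3 and Stmn2) had an unadjusted p under 0.05, beside 27.7% of all genes, and 4 of 8 (Ddc, Npy, Uchl1 and Stmn2) were lower in BAT without overlap, beside 17.7%. DESeq2 called 3 of 7 in this pair (Npy, Uchl1 and Stmn2), beside 16.8% of all genes. Limma-voom called 0, beside 0.0992%. The median of the 8 fitted values was −1.34 in BAT against EWAT, with 6 of 8 negative, beside −0.08 over all genes.

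In each of the remaining 4 pairs DESeq2 called 0 of 7 and limma-voom 0 of 8. The shares of all genes called by DESeq2 were 0.888% in BAT against IWAT, 1.74% in BAT against RWAT, 5.94% in IWAT against EWAT and 0.935% in IWAT against RWAT, and by limma-voom they were 0.0104%, 0.00522%, 0.131% and 0%. BAT against IWAT had 0 of 8 at an unadjusted p under 0.05, beside 3.85% of all genes, and Slc6a2 was 1 of 8 lower without overlap, beside 3.17%. BAT against RWAT had 3 of 8 (Ddc, Slc6a2 and Stmn2), beside 14.8%, and 3 of 8 (Slc6a2, Uchl1 and Stmn2) were lower without overlap, beside 9.35%. The median of the 8 fitted values in that pair was −1.46, with 8 of 8 negative, beside −0.07 over all genes. IWAT against EWAT had 3 of 8 (Npy, Uchl1 and Stmn2), beside 16.2%, and Stmn2 was 1 of 8 lower without overlap, beside 13.1%. Slc6a2 was higher without overlap in that pair, a direction whose share of all genes was not counted. IWAT against RWAT had 1 of 8 (Stmn2), beside 4.42%, and 2 of 8 (Uchl1 and Stmn2) were lower without overlap, beside 3.98%.

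Libraries of 1 depot often moved together in several of these genes. In BAT, replicate 3 was highest in Ddc, Slc18a2, Npy, Uchl1 and Tubb3, but lowest in Slc6a2 and Maoa. In RWAT, replicate 1 was lowest in Ddc, Slc6a2, Npy, Uchl1 and Tubb3, but highest in Slc18a2 and Maoa. In IWAT, replicate 1 was lowest in Ddc, Slc18a2, Npy, Uchl1 and Tubb3, but highest in Maoa. Stmn2 was neither highest nor lowest in any of these libraries. The summed CPM of 12 macrophage markers was 1162, 1512 and 5457 in BAT, 1840, 3107 and 5811 in IWAT, 5815, 7892 and 7117 in EWAT, and 2031, 5479 and 5093 in RWAT, so that BAT replicate 3 was the highest of its depot and IWAT replicate 1 and RWAT replicate 1 the lowest of theirs. Of the EWAT libraries, replicate 1 had the lowest macrophage sum but the highest Ddc, Slc18a2 and Npy, while Uchl1 and Tubb3 were highest in replicate 2. The part of cell make-up in these levels was not tested. Without BAT replicate 3, edgeR called Npy and Tubb3 in BAT against EWAT, with log2 fold changes of −11.12 and −4.48 (adjusted p = 0.0497 each), values that rest on BAT libraries with 0 counts of Npy and 8 and 11 counts of Tubb3.

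By Pearson's r of log2 CPM over the 12 libraries, the tested genes nearest to each of the 8 were as follows, given as a description since the points share depots and make-up. Ddc was nearest to Mxra8 (r = 0.96), Col8a2 (0.959) and Bicc1 (0.959). Slc18a2 was nearest to Zfp738 (0.926), Swt1 (0.911) and Dmtf1 (0.909). Slc6a2 had the loosest neighbours, Hira (0.885), Obfc1 (0.818) and Wipi1 (0.811). Maoa was nearest to Jade1 (0.948), Tanc1 (0.94) and Fan1 (0.938), and Npy to Zfp7 (0.961), Tbc1d30 (0.951) and Cd52 (0.948). Uchl1 was nearest to Paqr8 (0.939), Akap12 (0.936) and Tubb3 (0.933), and Tubb3 to Bok (0.95), Grk6 (0.943) and Paqr8 (0.941). Stmn2 was nearest to Vtcn1 (0.935), Foxc1 (0.924) and Krt19 (0.924), the last of which is in the mesothelial list. Tubb3 in the case of Uchl1 was the only one of the 10 genes among the nearest of another.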

How the data were processed

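Total RNA of 12 denervated fat libraries was depleted of ribosomal RNA and sequenced as single-end reads of 75 bases, per the labels' protocols. The authors' tools were Trimmomatic 0.36, DESeq2 1.10.1 and RSEM 1.3.0, with build GRCm38.p4, per the submitters' processing notes. The deposited values are RSEM expected counts, with TPM computed by the authors, a posterior SD (a score of count uncertainty) and an effective length in bases, per the file headers. Counting by strand is not given in the sources used here.

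Expected counts were rounded. FilterByExpr kept 19154 genes. Libraries were TMM-scaled and fitted together, 1 coefficient per depot, with edgeR 4.0.16 (quasi-likelihood test, R 4.3.3). A call needed an adjusted p under 0.05 (Benjamini-Hochberg, over all 19154 genes). Against several depots, the comparison is with their mean log2 level. Alternatives used DESeq2 1.42.0, limma-voom (limma 3.58.1), other scalings and filters, a replicate block and leaving out each library. TPM served levels per length. Coordinates came from GENCODE M21 and promoters from RefSeq (8 of 10 genes matched). No libraries were identical or agreed within sampling noise.

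The 10 genes and all lists were chosen with earlier results of these data known. All 10 are described. Of each pathway list, called genes or, with none called, the one with the highest mean TPM are named, and the 3 tested named genes nearest in pattern to each gene.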

Additional observations from a re-analysis of the deposited data

How the results depend on the processing

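The count of 0 called among the 8 tested genes held in the 3 main comparisons and in 4 of the 5 other depot pairs under all alternatives. In BAT against EWAT, DESeq2 called 3, the replicate block called 1 (Npy, adjusted p = 0.0496), and leaving out 1 library gave 0 to 2, the 2 being Npy and Tubb3 without BAT replicate 3. DESeq2 gave Tubb3 no adjusted p, so those values are left out. Of 1208 values recomputed for the 8 genes, 1154 kept direction and side of the threshold, 6 passed it and 48 turned sign, 37 of these with 1 library left out.

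The number of all genes called in BAT against white was 19, with 950 by DESeq2, 3 by limma-voom, 11 without TMM, 47 without the low-count filter, 649 with the replicate block and 1 to 263 with 1 library left out. In IWAT against EWAT and RWAT it was 27, with 364 by DESeq2, 16 by limma-voom and 6 to 139 with 1 library left out. In EWAT against RWAT it was 8, with 546 by DESeq2 and 0 to 804 with 1 library left out. The causes were not tested.

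Without TMM the median of all genes in BAT against white was −0.46 in place of −0.07, and in IWAT against EWAT and RWAT it was −0.29 in place of −0.05. Values near 0 then turned negative. Slc18a2 came to −0.33 in BAT against white, −0.17 in IWAT against EWAT and RWAT, −0.22 in BAT against IWAT, −0.24 in BAT against EWAT and −0.030 in IWAT against EWAT. Maoa came to −0.23 in IWAT against EWAT and RWAT, −0.51 in BAT against EWAT and −0.19 in IWAT against EWAT. Slc18a2 in BAT against IWAT was −0.00093 without the filter. Whether libraries with the same number share an animal is not in the labels. Of 18 same-numbered pairs, 10 had a correlation of their deviations above 0.1 (range −0.347 to 0.677), and 7 of 12 libraries matched their own number best. The block is therefore given as an alternative. With the replicate block, Slc18a2 in IWAT against EWAT and RWAT was −0.014 and Ddc in EWAT against RWAT was 0.075.

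Leaving out 1 library turned these log2 fold changes, given as ranges. In BAT against white, Slc18a2 ran from −0.16 to 0.28 and Maoa from −0.17 to 0.18. In IWAT against EWAT and RWAT, Slc18a2 ran from −0.25 to 0.17, Slc6a2 from −0.23 to 0.028 and Maoa from −0.18 to 0.27. In EWAT against RWAT, Ddc ran from −0.59 to 0.32, Maoa from −0.38 to 0.076, Uchl1 from −0.72 to 1.19, Tubb3 from −1.03 to 1.32 and Stmn2 from −0.32 to 0.35. In BAT against IWAT, Ddc ran from −1.20 to 0.14, Slc18a2 from −0.19 to 0.29, Maoa from −0.32 to 0.13 and Stmn2 from −0.35 to 0.0056. Maoa ran from −0.041 to 0.32 in BAT against EWAT, from −0.32 to 0.14 in BAT against RWAT, from −0.076 to 0.37 in IWAT against EWAT and from −0.28 to 0.25 in IWAT against RWAT. Slc18a2 ran from −0.35 to 0.10 in BAT against RWAT and from −0.068 to 0.36 in IWAT against EWAT, and Npy from −1.46 to 0.28 in IWAT against RWAT.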
